A study of Mus musculus with 3 samples.

Results

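Runx3 binding and H3K4me1 were examined at 10 genes of transforming growth factor-β (TGF-β) signalling in resting mouse natural killer cells (NKC). The genes were Tgfb1, Tgfbr1, Tgfbr2, Tgfbr3, Smad2, Smad3, Smad4, Smad7, Ski and Skil, 10 of 22350 protein-coding genes, found by symbol in the mm9 gene annotation. Each gene body was taken with 20 kb on either side, and every deposited region that overlapped this window was listed. The 10 windows held 42 of the 15524 Runx3-bound regions (peaks) and 91 of the 49902 H3K4me1-marked regions of the whole genome.

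The data came from 3 chromatin immunoprecipitation sequencing (ChIP-seq) samples, 1 per antibody. Freshly isolated splenic NKC of ICR mice, a wild-type outbred strain, were fixed without activation. Chromatin was precipitated with a home-made polyclonal antibody to Runx3 (Runx3_IP), with a monoclonal antibody to H3K4me1 (H3K4me1_IP), or with non-immune rabbit serum (NIS), the control against which regions were called. The number, age and sex of the mice are not given in the sources used here. Each antibody had a single list of coordinates with no score or read number, so the depth at a region is unknown, no value below has a spread between replicates, and no difference was tested. Values at the 10 genes are given beside the same values over all genes or all peaks as a description. Where an interval is given, it is a 95% Wilson interval that covers counting error over peaks, which are not replicates.

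TGF-β is secreted in a latent form, and once released it binds the type II receptor encoded by Tgfbr2, which recruits and activates the type I receptor kinase encoded by Tgfbr1. Tgfbr3 encodes betaglycan, a co-receptor that presents the ligand. The activated receptor phosphorylates Smad2 and Smad3, which join the common partner Smad4 and enter the nucleus, while Smad7 inhibits the receptor and Ski and SnoN (encoded by Skil) repress Smad target genes. TGF-β is known to restrain the effector functions of NKC, and Runx3 is a transcription factor of the RUNX family that is expressed in these cells. H3K4me1 is a histone mark of enhancers and of the flanks of active promoters.

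All 10 genes had at least 1 Runx3 peak, whereas 51% of all protein-coding genes did. The share was 57.9% in the length classes of the 10 genes. It was 74.1% among genes with H3K4me1 within 1 kb of a start, a trait of all 10 genes. Each of the 10 genes also had an H3K4me1 region, as did 74% of protein-coding genes. The median number of regions was 7 for the 10 genes and 3 for all protein-coding genes, whose windows were mostly shorter. Smad3 stood first with 13 peaks, followed by Ski with 7, Tgfbr3 with 6, Tgfb1 and Tgfbr2 with 5 each and Smad7 with 2. Tgfbr1, Smad2, Smad4 and Skil had 1 peak each, which is the median number over all protein-coding genes. With 5 or more peaks each, 5 of the 10 genes (Tgfb1, Tgfbr2, Tgfbr3, Smad3 and Ski) were among the 4.08% of protein-coding genes that had as many, a limit that was chosen after the values were seen. With the gene body alone Tgfb1 had 1 peak and Tgfbr2 had 3, and among peaks wider than the median Tgfb1 and Tgfbr3 had 4 each and Tgfbr2 had 1, so that Smad3 (12 and 9) and Ski (5 and 6) stayed at 5 or more in both settings. In the map of the 10 loci, the peaks of Tgfbr2, Tgfbr3, Smad3 and Ski are spread along the genes, whereas those of Tgfbr1, Smad2, Smad4 and Skil are near the 5′ end.

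**Figure D1:**
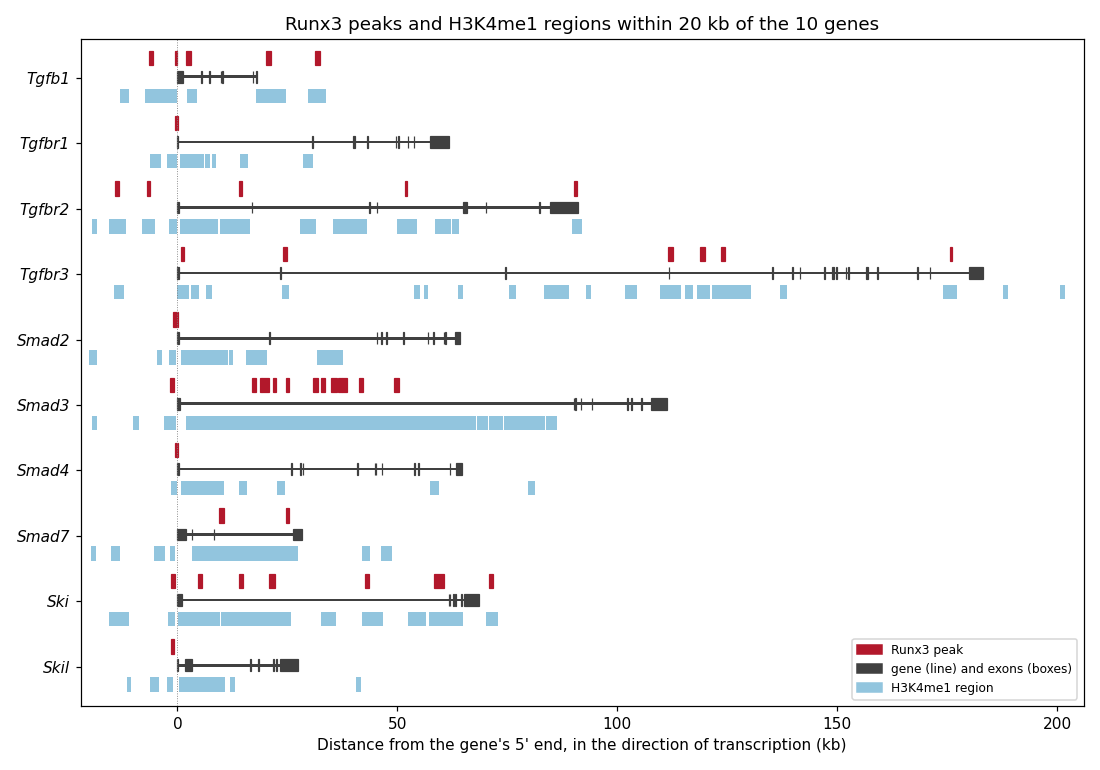
Runx3 peaks (red, above each gene) and H3K4me1 regions (blue, below it) along the 10 genes, with the exons of the longest transcript as dark boxes. The x axis is the distance from the gene's 5′ end in kb, in the direction of transcription, and each window ends 20 kb beyond the gene. The 13 peaks of Smad3 include 12 over a single H3K4me1 region of 65.9 kb, while Tgfbr1, Smad2, Smad4 and Skil have 1 peak each near the 5′ end.

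The 10 genes were long, with a median length of 64462 bp against 15427.5 bp over all protein-coding genes, and a longer window has more room for peaks. Protein-coding genes were divided into 5 classes of equal number by length. The share with a Runx3 peak was 26.8, 51.4, 58.9, 61.2 and 56.9% from the shortest to the longest class. It thus rose with length except in the longest class. Within the longest class, which held 7 of the 10 genes, 9.15% of all genes and 4 of these 7 had 5 or more peaks. Expressed per 100 kb of window, the median was 2.81 peaks for the 10 genes and 0.459 for all protein-coding genes. Tgfb1 and Smad3 had the highest densities, 8.61 and 8.60 peaks per 100 kb, and Smad4 had the lowest at 0.954.

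H3K4me1 regions covered 33.7% of the 10 windows together and 4.83% of the genome. The cover of a gene's window was highest at Smad3 (58.5%), Smad7 (50.8%) and Ski (49.8%), which put them above 99.1, 98.2 and 98.1% of protein-coding genes. It was 38.4% at Tgfb1, 36.7% at Tgfbr2, 25.6% at Smad2, 25.3% at Skil, 22.5% at Tgfbr3, 17.5% at Smad4 and 16.2% at Tgfbr1. The median was 31.1% for the 10 genes and 7.38% for all protein-coding genes, so even Tgfbr1, the least covered, lay above that median. Smad7 combined one of the highest covers with only 2 peaks, and Tgfbr3 combined 6 peaks with a cover in the lower part of the range, as the plot of the 2 measures shows.

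**Figure D2:**
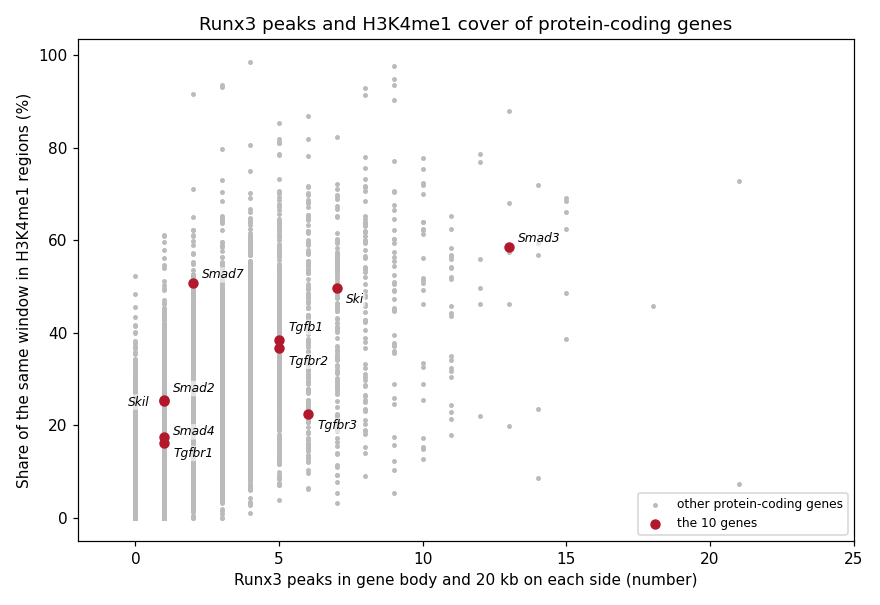
Number of Runx3 peaks (x axis) and share of the window covered by H3K4me1 regions in % (y axis) for each protein-coding gene with 20 kb on either side. The 10 genes are red and labelled, all others are grey, and 1 gene with more than 25 peaks lies beyond the axis. Smad3 is at 13 peaks and 58.5%, and Tgfbr1 at 1 peak and 16.2%.

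The sequences at the centres of peaks were compared with the RUNX consensus, whose 4 variants are TGTGGT and TGTGGC together with TGCGGT and TGCGGC, searched on both strands. For each gene the central 200 bp of the widest peak are given here, or of the next widest where those bases overlapped an annotated UTR, as at Tgfb1. For Smad3 and Ski the widest of the peaks tied at 2 central matches, the most at either gene, is added, chosen after its values were seen. RUNX matches are in capitals, and a match on the other strand reads as its reverse complement. These windows carry the base pattern that the motif counts rest on, and they also show centres without a match, at Tgfbr3 peak 3, Ski peak 6 and Skil. Peaks are numbered in each gene in the direction of transcription. Sequences of Smad2, Smad4 and Smad7 are not shown.
Tgfb1 peak 4, chr7:26492551-26492750, + strand: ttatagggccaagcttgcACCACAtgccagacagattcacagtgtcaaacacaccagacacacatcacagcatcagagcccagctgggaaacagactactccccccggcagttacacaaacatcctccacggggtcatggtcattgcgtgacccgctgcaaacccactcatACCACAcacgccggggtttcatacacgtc
Tgfbr1 peak 1, chr4:47365780-47365979, + strand: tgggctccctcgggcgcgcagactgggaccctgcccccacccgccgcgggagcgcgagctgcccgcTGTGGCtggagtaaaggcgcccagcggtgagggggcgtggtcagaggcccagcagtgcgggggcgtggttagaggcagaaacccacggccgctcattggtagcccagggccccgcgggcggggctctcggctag
Tgfbr2 peak 1, chr9:116098103-116098302, + strand: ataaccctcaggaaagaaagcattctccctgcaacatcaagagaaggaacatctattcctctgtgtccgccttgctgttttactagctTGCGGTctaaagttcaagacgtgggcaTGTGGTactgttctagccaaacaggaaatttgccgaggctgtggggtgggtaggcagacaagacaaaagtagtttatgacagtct
Tgfbr3 peak 3, chr5:107606480-107606679, + strand: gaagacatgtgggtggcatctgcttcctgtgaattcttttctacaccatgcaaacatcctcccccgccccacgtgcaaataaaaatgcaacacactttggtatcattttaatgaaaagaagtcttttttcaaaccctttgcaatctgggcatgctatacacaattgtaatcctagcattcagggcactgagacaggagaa
Smad3 peak 4, chr9:63585638-63585837, + strand: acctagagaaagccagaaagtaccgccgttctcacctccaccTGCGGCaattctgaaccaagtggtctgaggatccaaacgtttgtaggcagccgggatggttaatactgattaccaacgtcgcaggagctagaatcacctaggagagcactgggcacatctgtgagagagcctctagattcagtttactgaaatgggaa
Smad3 peak 7, chr9:63574384-63574583, + strand: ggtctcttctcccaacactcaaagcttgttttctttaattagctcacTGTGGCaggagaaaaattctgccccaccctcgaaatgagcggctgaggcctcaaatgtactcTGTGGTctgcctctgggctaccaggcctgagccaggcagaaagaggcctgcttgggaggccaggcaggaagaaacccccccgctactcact
Ski peak 6, chr4:154537153-154537352, + strand: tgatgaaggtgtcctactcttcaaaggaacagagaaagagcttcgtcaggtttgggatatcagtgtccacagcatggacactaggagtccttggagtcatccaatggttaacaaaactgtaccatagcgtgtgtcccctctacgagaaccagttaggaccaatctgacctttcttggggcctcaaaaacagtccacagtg
Ski peak 1, chr4:154597630-154597829, + strand: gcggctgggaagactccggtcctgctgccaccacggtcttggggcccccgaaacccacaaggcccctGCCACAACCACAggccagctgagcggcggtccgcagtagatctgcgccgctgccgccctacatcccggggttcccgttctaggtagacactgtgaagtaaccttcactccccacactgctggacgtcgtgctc
Skil peak 1, chr3:30992723-30992922, + strand: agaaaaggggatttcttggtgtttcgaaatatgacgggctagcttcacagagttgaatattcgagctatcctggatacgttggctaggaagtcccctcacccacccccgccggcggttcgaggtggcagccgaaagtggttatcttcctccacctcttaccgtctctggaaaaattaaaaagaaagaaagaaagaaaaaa

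Tgfb1, the ligand gene (chr7:26472021-26490096, + strand), had 5 peaks of 560 to 1131 bp. One lay 338 bp from its 5′ end and another 2.52 kb into the gene, over exonic sequence and 598 bp from an alternative start. The other 3 peaks were nearest to the start of another gene. One was 5980 bp upstream of Tgfb1 and 136 bp from the start of B9d2, and the 2 downstream peaks were 8475 and 49 bp from the start of Ccdc97. The count for Tgfb1 therefore rests in part on its neighbours, and 2 of its 5 peaks were closest to Tgfb1 itself. The peak shown above, 8475 bp from Ccdc97, had 2 TGTGGT matches in its centre. Tgfb1 had 5 H3K4me1 regions, of which the widest (7.21 kb) lay upstream and held 2 of the peaks.

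The 3 receptor genes differed in where their peaks lay. Tgfbr1 (chr4:47366094-47427803, + strand) had a single peak of 899 bp, which spanned the 5′ end with its midpoint 215 bp upstream, and its GC-rich centre (74.5% GC) had 1 TGTGGC match. No peak was listed over the rest of its 61.7 kb or in the other 6 of its 7 H3K4me1 regions. Tgfbr2 (chr9:115993415-116084383, - strand) had no peak within 5 kb of a start. Its 5 peaks lay 13819 and 6574 bp upstream, in intron 1 (14.3 kb from the 5′ end), in intron 4 (52.0 kb) and over the 3′ UTR exon (90.5 kb). Of these 5 peaks 4 had a central RUNX match, and the peak at 13819 bp had both a TGCGGT and a TGTGGT match. At Tgfbr3 (chr5:107535589-107718648, - strand, 183.1 kb) all 6 peaks were inside the gene, at 1.13, 24.5, 112.1, 119.3, 124.1 and 176.0 kb from the 5′ end. The peaks at 112.1, 119.3 and 124.1 kb formed a group around and within intron 4, and none of these 3 had a RUNX match in the central 200 bp. The last peak, at 176.0 kb, was in intron 16.

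Among the receptor-activated Smads, Smad3 and Smad2 were at opposite ends of the range. Smad3 (chr9:63494574-63605801, - strand) had 13 peaks, and 21 protein-coding genes, Smad3 included, had as many or more. One peak lay 1318 bp upstream. The other 12 were all in intron 1, with midpoints 17.4, 19.0, 20.1, 22.1, 25.1, 31.3, 33.1, 35.6, 36.9, 37.9, 41.7 and 49.7 kb from the 5′ end. These 12 lay in a single H3K4me1 region of 65.9 kb (chr9:63537892-63603761), so they are 12 intervals within 1 marked region. Their midpoints were spaced by a median of 2076 bp (977 to 8039 bp), and joining peaks less than 1 kb apart left 7 separate regions at Smad3. Annotation gives alternative starts inside this intron, and the 12 midpoints were 2661 to 14707 bp from the nearest start. Of these 12 peaks, 10 had a central RUNX match. TGTGGT was in the centre of 6 of them and TGTGGC in 5, and the whole peaks held 1 to 7 matches each. A further 4 H3K4me1 regions of 2.40, 3.26, 9.46 and 2.49 kb continued the marked stretch toward the 3′ side, still in introns, with no Runx3 peak. Smad2 (chr18:76401234-76465385, + strand) had 1 peak of 936 bp, with its midpoint 450 bp upstream of the 5′ end, and no peak in its widest H3K4me1 region of 10.5 kb in the first part of the gene.

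Smad4 (chr18:73798663-73863434, - strand), the common partner, resembled Smad2 in this layout. Its only peak (771 bp) had its midpoint 234 bp upstream of the 5′ end, and its widest H3K4me1 region (9.81 kb) held no peak. Smad7 (chr18:75527183-75555589, + strand), the inhibitory Smad, had no peak within 1 kb of a start. Both of its peaks were in intron 3, 10018 and 25063 bp from the 5′ end, and both were in a region of 24.2 kb (chr18:75530497-75554696) that marked most of the gene body. The first of them was 2633 bp from an alternative start.

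The 2 corepressor genes also differed. Ski (chr4:154528184-154596701, - strand) had a peak 1028 bp upstream, 5 peaks in intron 1 at 5.14, 14.5, 21.5, 43.1 and 59.4 kb, and 1 downstream of the gene. The intronic peaks were in 5 different H3K4me1 regions of 1 peak each, unlike those of Smad3. The peak at 59.4 kb was the widest of the 42 (2138 bp). Its centre had no RUNX match, although the whole peak held 7. Skil (chr3:30993980-31021499, + strand) had 1 peak, 1158 bp upstream, with an ETS match (AGGAAGT) but no RUNX match in its central 200 bp. ETS factors are a family that binds GGAA-centred sites and often shares regions with RUNX factors. The whole peak at Skil held 1 RUNX match.

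**Figure D3:**
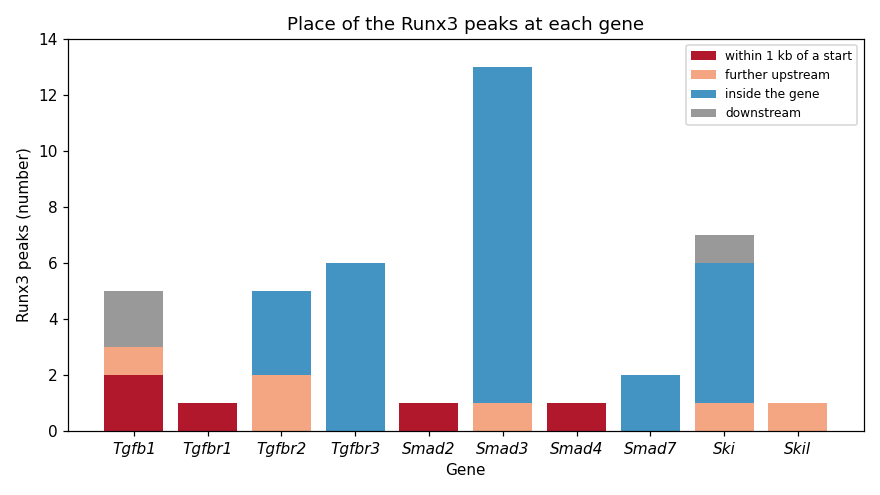
Number of Runx3 peaks at each gene (y axis, starting at 0), divided by place. The categories are a midpoint within 1 kb of a start of the same gene, further upstream, inside the gene and downstream. Of the 42 peaks, 28 are inside the genes, 5 at a start, 6 further upstream and 3 downstream.

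In total 28 of the 42 peaks were inside the genes, and 4 genes (Tgfb1, Tgfbr1, Smad2 and Smad4) had a peak midpoint within 1 kb of one of their own starts. Such a peak was present at 27.2% of all protein-coding genes. The limit of 1 kb falls close to several peaks, since those of Ski, Tgfbr3, Skil and Smad3 were 1028, 1097, 1158 and 1318 bp from a start. Within 5 kb of a start, 9 of the 10 genes had a peak, and Tgfbr2 was the exception. The 27.2% is for the limit of 1 kb, and no share over all genes is given for 5 kb. Measured to any annotated start, 26 of the 42 peaks (61.9%, interval 46.8 to 75.0%) were over 5 kb away, against 45.1% of all Runx3 peaks, and 7 (16.7%, interval 8.32 to 30.6%) were under 1 kb away, against 39.1%. Smad3 alone supplied 12 of the intragenic peaks, and without Smad3 18 of 29 peaks (62.1%) were over 5 kb away. The 10 genes were mostly long, and no value is given for peaks at other genes of like length. Whether these distances follow gene length was not tested.

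All 42 peaks overlapped an H3K4me1 region (interval 91.6 to 100%), and 95.7% of all Runx3 peaks did. The midpoint of each of the 42 was inside a region, against 83.6% of all peaks. That share depended on place. It was 94.9% for all peaks over 5 kb from any start, where 26 of the 42 lay, and 66.2% for those under 1 kb. In the other direction, 29 of the 91 H3K4me1 regions (31.9%) held a Runx3 peak and 62 did not. Over the genome 28.6% of regions held one. Regions of 10 kb or more were found at Smad2, Smad3 and Smad7, 3 of the 91, and made up 1.99% of all H3K4me1 regions.

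Around the 5′ ends the marked regions had a common layout. At 9 of the 10 genes the outermost 5′ end lay in a gap between 2 H3K4me1 regions that were both within 5 kb. Tgfbr3 was the exception, with its 5′ end inside a region. Such a gap was found at 17.3% of protein-coding genes, and at 23.3% of those with any H3K4me1 region in the window. The gaps were 634 bp at Tgfbr1, 644 bp at Tgfbr2, 697 bp at Ski, 796 bp at Smad4, 1218 bp at Smad2, 1342 bp at Skil, 2263 bp at Tgfb1, 2351 bp at Smad3 and 3919 bp at Smad7. Runx3 peaks reached into the gap at 6 genes (Tgfb1, Tgfbr1, Smad2, Smad4, Ski and Skil), with 7 peaks in all. These 7 were also the only ones of the 42 that H3K4me1 did not cover in full, with 58.7 to 88.2% of their bases marked, and none had its midpoint in the gap. Of all Runx3 peaks, 31.6% were not covered in full. No peak touched the gap at Tgfbr2, Smad3 or Smad7. Of all protein-coding genes with such a gap, 58.7% had a peak that touched it.

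**Figure D4:**
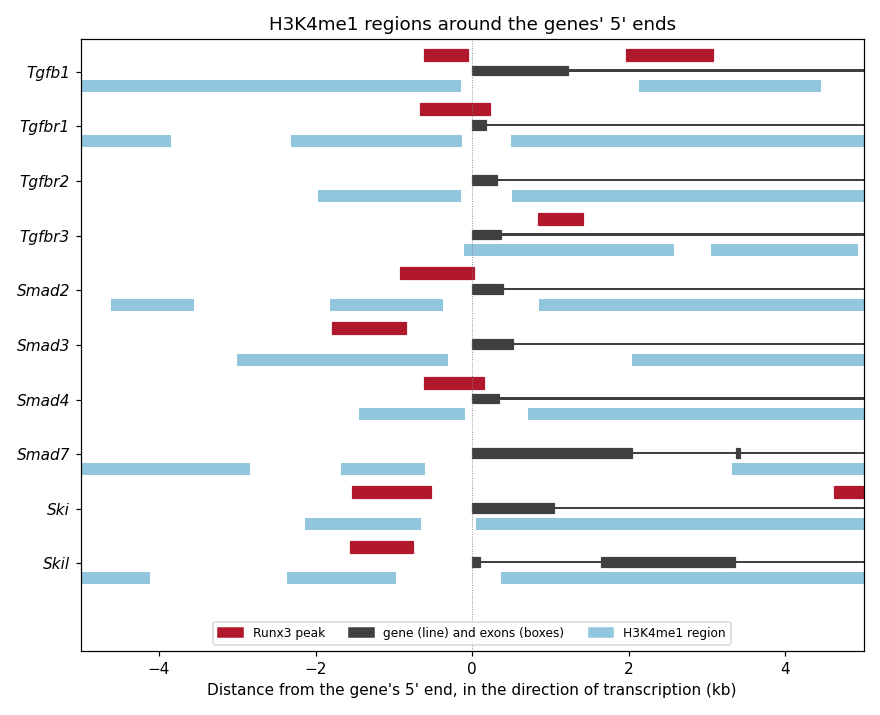
Runx3 peaks (red) and H3K4me1 regions (blue) within 5 kb of the 5′ end of each gene, with exons of the longest transcript as dark boxes. The x axis is the distance from the 5′ end in kb, in the direction of transcription. At each gene except Tgfbr3 the 5′ end is in a gap between marked regions, from 634 bp wide at Tgfbr1 to 3919 bp at Smad7.

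A RUNX match was present in the central 200 bp of 31 of the 42 peaks (73.8%, interval 58.9 to 84.7%), against 69.2% of all Runx3 peaks, which is within the interval. Without Smad3 the count was 20 of 29 (69.0%). By variant, 18 of the 42 centres held TGTGGT (42.9%, and 41.2% of all peaks did), 14 held TGTGGC (33.3%, beside 24.3%), 7 held TGCGGT (16.7%, beside 12.8%) and 1 held TGCGGC (2.38%, beside 10.9%). The single TGCGGC was in Smad3 peak 4, shown above. Each of the 42 peaks held at least 1 match along its full width, with a median of 2, and 93.3% of all peaks held one. The density over whole peaks was 3.28 matches per kb, against 3.19 in all Runx3 peaks. An ETS match (AGGAAGT or CGGAAGT) was in the centre of 9 of the 42 (21.4%, against 20.1%). The AP-1 site TGAGTCA, bound by Fos and Jun proteins, was in the centre of 1 peak, Smad3 peak 6 (2.38%, against 5.46%). The palindromic SMAD element GTCTAGAC was in none of the 42, centre or whole, and in 0.167% of the centres of all peaks. A count of letters in these windows does not show whether a factor was bound.

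**Figure D5:**
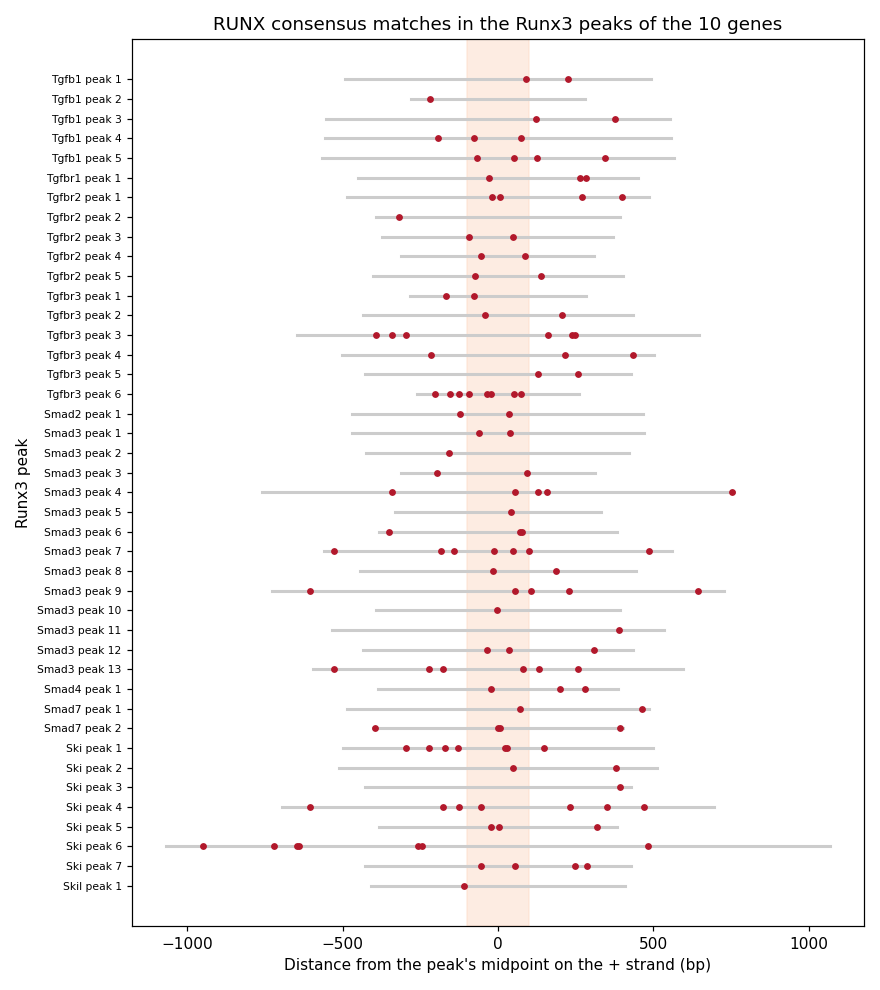
RUNX consensus matches (red points) in the 42 Runx3 peaks of the 10 genes, 1 line per peak, with the grey bar giving the peak's extent. The x axis is the distance from the peak's midpoint in bp on the + strand, and the shaded band marks the central 200 bp. The band holds a match in 31 of the 42 peaks.

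Of 45 other genes of the pathway, 21 had a Runx3 peak in the same window, close to the 51% over all protein-coding genes, and their median H3K4me1 cover was 6.60%. Among the ligands, Tgfb3 had 1 peak, and Tgfb2, Inhba and Inhbb had none. Of 10 genes for storage or release of latent ligand, Ltbp3 had 4 peaks and Furin and Ltbp4 had 1 each, whereas Ltbp1, Ltbp2, Lrrc32, Itgav, Itgb6, Itgb8 and Thbs1 had none. Of 11 further receptor genes, Acvrl1 had 2 and Acvr2a, Eng and Bambi had 1 each, and Acvr1, Acvr1b, Acvr1c, Acvr2b, Bmpr1a, Bmpr1b and Bmpr2, receptors for activins and bone morphogenetic proteins (BMPs), had none. The remaining Smads, Smad1, Smad5 and Smad9 of the BMP arm and the inhibitory Smad6, had no peak, and their H3K4me1 cover was 6.18 to 13.5%. Each of the 4 Smads among the 10 genes had a peak and none of the other 4 did. The 10 genes were chosen with earlier results of these data known, which limits this contrast. Smad2 and Smad4 had 1 peak each, the median over all protein-coding genes.

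Of 10 genes that regulate the signal inside the cell, 8 had a peak, led by the ubiquitin ligase gene Nedd4l with 5 and Pmepa1, whose product limits Smad signalling, with 3. The ligase genes Smurf1 and Smurf2 had none. The cofactor genes Crebbp, Ep300 and Foxh1 had 2, 1 and 1, and of the kinase arm Tab2 had 3, Map3k7 had 1 and Tab1 had none. Tab2, an adaptor of the TAK1 kinase, had the highest cover of the 45, at 44.1%.

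The genes most like Smad3 in number of peaks and H3K4me1 cover, by the distance between the 2 measures each divided by its SD over all protein-coding genes, were Rasa3 (13 peaks, 57.5%), Zmiz1 (14 peaks, 59.4%), Fam107b (14 peaks, 56.9%), Ubac2 (12 peaks, 55.9%) and Rapgef1 (13 peaks, 68.1%). They were 78.1 to 207.6 kb long, against 111.2 kb for Smad3.

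As a check of the labelled cell type, all 10 NKC marker genes had a Runx3 peak, and H3K4me1 covered 29.8 to 94.8% of their windows (median 69.3%). The median cover was 24.4% for 8 T cell genes, 7.24% for 7 B cell genes and 11.3% for 7 myeloid genes. A Runx3 peak was found at 5 genes of each of these lists, and at 51% of all protein-coding genes in the same window. The T cell, B cell and myeloid lists were thus not below that share. Cd8a, Cd8b1, Ms4a1 and Lyz2 had neither a peak nor a marked region. Others were marked, among them Cd28 (5 peaks, 33.3% cover), the Cd3 genes (2 peaks each, 27.3 to 44.7%), Cd79a (3 peaks, 28.2%), Cd22 (1 peak, 30.5%), Spi1 (3 peaks, 25.3%) and Itgax (5 peaks, 53.9%), which encodes CD11c and is also expressed by NKC. Whether other cells took part in the values at the 10 genes was not tested. The cover at Smad3, Smad7, Ski, Tgfb1 and Tgfbr2 was within the range of the NKC markers but below their median. For Tgfb1 and Tgfbr2 this rests on Eomes alone (29.8%), since the next lowest marker, Itga2, had 48.4%. Except for Smad3 the cover was also within the range of the myeloid genes. This rests on Itgax alone, since the next highest, Spi1, had 25.3%, below all 5.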

How the data were processed

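As described in the study's methods and per the labels, the authors aligned 40 bp reads to mm9 with ELAND (CASAVA 1.7), kept unique alignments and called regions with MACS on the joined reads of their biological repeats against NIS. The labels describe each sample as a first experiment and name sorting on NKp46, whereas the methods name DX5, and the coordinates do not settle either point. The deposited lists hold position and name alone, and no score. Coordinates are 1-based on mm9 (NCBIM37), with gene models of the GENCODE annotation of that build. Overlap required at least 1 bp, and a peak's place was taken at its midpoint. Windows were compared with all 22350 protein-coding genes, using Python 3.11.15, numpy 2.4.6 and pandas 2.3.3, and the overlap counts were tested on simulated data. All 87 symbols looked up were found, 1 of them by an older symbol. The members and gene lists were chosen with earlier results of these data known. The named genes are the 10, those of each pathway group with the most peaks or none, genes whose start is nearest to a peak and the 5 most like Smad3. Further genes in those groups, and the marker genes, are named to complete a count. The layout around 5′ ends and the values without Smad3 were examined after the data were seen. With 1 list per antibody, no replicate could be left out and no test was made. Alternatives are given in the closing section.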

Additional observations from a re-analysis of the deposited data

How the results depend on the processing

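With the gene body alone the 45 pathway genes with a peak fell from 21 to 12, Skil lost its peak (9 of the 10 genes kept one), Tgfb1 fell from 5 peaks to 1 and Tgfbr2 from 5 to 3, and the H3K4me1 cover rose from 33.7% to 41.8%. By gene, that cover fell from 38.4% to 13.6% at Tgfb1 and rose from 50.8% to 85.2% at Smad7 and from 25.3% to 42.4% at Skil. The cover was 40.7% with 5 kb and 28.0% with 50 kb on either side. With 5 kb Tgfb1 and Tgfbr2 had 3 peaks each. With 50 kb the 42 peaks became 61 and the pathway genes with a peak 30, and the count rose to 8 at Tgfb1, to 5 at Smad7 and to 3 each at Tgfbr1, Smad2 and Skil. Only regions wider than the median gave a cover of 30.0% and an overlap of 88.1% in place of 100%. Only peaks wider than the median left 27 of 42 peaks, 8 of the 10 genes (Smad4 and Skil had none, Tgfbr2 and Smad7 had 1 each) and 10 pathway genes. Joining peaks less than 1 kb apart left 36 peaks, with 7 in place of 13 at Smad3. With 5 kb in place of 1 kb, 9 genes in place of 4 had a peak at a start, with no share over all genes given. The share with a RUNX match was 35.7% in the central 100 bp and 100% over whole peaks, in place of 73.8%. Over all Runx3 peaks it was 46.6% in the central 100 bp and 93.3% over whole peaks. The 42 peaks were thus below all peaks at 100 bp, although above them at 200 bp. At both widths the share of all peaks was within the interval for the 42 (23.0 to 50.8% at 100 bp). Settings chosen after seeing the data were regions within 2 kb on both sides and wider regions alone. Each left 6 of the 10 genes, in place of 9, with the 5′ end in a gap. No share over all genes is given for these settings. A peak was found at 33.6% of all protein-coding genes with gene bodies alone, 39.8% with 5 kb and 62.6% with 50 kb on either side. That share was 35.1% with wide peaks, 57.9% in the members' length classes and 74.1% among genes with H3K4me1 at a start. No paired analysis was possible because each antibody had 1 list.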
